A study of Mus musculus with 44 samples.

Results

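The genes described here encode heat shock proteins, other molecular chaperones and their closest partners, and they were followed in the left ventricle of mice with and without a PKCε transgene. They were chosen by name from the array annotation. The rule took symbols that start with Hspa, Hspb, Hspd, Hspe, Hsph or Hsp90, the J proteins of classes A, B and C (Dnaja, Dnajb, Dnajc), the subunits of the cytosolic chaperonin (Cct and Tcp1), and Hsf1, Hsf2, Bag3, Stip1, Chordc1 and Cryab. Of 12394 genes with a named probe set, 75 met the rule and were measured by 153 probe sets. They comprised 2 HSP90 genes, 12 genes of the HSP70 and HSP110 families and 7 genes grouped by symbol as small heat shock proteins, Hspb11 included. Further members were the 2 subunits of the mitochondrial chaperonin and 9 chaperonin subunits of the cytosol. The rest were 38 J proteins (4 of class A, 12 of class B, 22 of class C) and 5 regulators or cochaperones. Hsf1 was not analysed here, and 2 probe sets that match both Dnajc19 and its pseudogene were left unnamed.

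Total RNA from 44 left ventricles, 1 array per mouse, was measured on Affymetrix 430A 2.0 arrays. PKCε mice expressed a constitutively active rabbit PKCε (A159E) in cardiomyocytes only, under the mouse Myh6 promoter, on the FVB/N background, and controls were nontransgenic FVB/N mice (FVB). Both lines received 30 mg/kg of antibody intraperitoneally 2 times per week, starting at an age of 3 months and lasting 3 months, and hearts were taken at 6 months. The antibody was either FG-3149, directed against connective tissue growth factor (CTGF), or nonimmune mouse IgG. The groups were PKCε FG-3149 (12 mice, 6 female), PKCε IgG (10 mice, 5 female), FVB FG-3149 (12 mice, 6 female) and FVB IgG (10 mice, 7 female). Both transgenic groups carried the same transgene, and no untreated group was analysed here.

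Chaperones bind unfolded or partly folded proteins and keep them from aggregating while they fold. HSP70 proteins do this in cycles of ATP hydrolysis that J proteins start and that exchange factors such as the HSP110 proteins end. HSP90 acts later, on signalling proteins and receptors, with a set of cochaperones that bring its clients and time its ATPase. Mitochondria and the endoplasmic reticulum have their own HSP70, HSP90 and J proteins, and mitochondria also fold proteins in a barrel of HSP60 and HSP10. Many cytosolic members are induced by heat shock factor 1, which binds repeats of a short unit called the heat shock element. In heart muscle, small heat shock proteins such as Cryab also bind the sarcomere and its Z discs.

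Values are log2 of the deposited ratio of each gene to its own median over the 44 arrays, so a level of 0 is that gene's median and levels cannot be set against those of another gene. A difference between groups is on the same log2 scale, and a member is said to have risen or fallen only where limma gave an adjusted p under 0.05 over all 12394 genes. A set of 10 ventricular cardiomyocyte markers was lower in PKCε hearts, with medians of -0.10 (FG-3149) and -0.23 (IgG), against 0.14 (FG-3149) and 0.11 (IgG) in FVB hearts. A set of 5 fibroblast markers was higher there, with medians of 0.51 and 0.76, against -0.59 and -0.39. In whole tissue, fewer cells of a type and less RNA per cell cannot be told apart, and the part of the markers in the results was not tested. A set of 3 atrial genes (Sln, Myl7, Myl4) averaged above 4 in log2 ratio on 10 arrays, 2 of PKCε FG-3149, 2 of PKCε IgG, 1 of FVB FG-3149 and 5 of FVB IgG, and 2 lung genes were both above 3 on 2 PKCε IgG arrays. The difference between 3' and 5' control probe sets of Gapdh averaged 0.04 (PKCε FG-3149), 0.30 (PKCε IgG), -0.13 (FVB FG-3149) and -0.04 (FVB IgG). Replicate 11 of FVB FG-3149, a female by its label, had a log2 ratio of 3.63 for the Y-linked gene Uty, whereas no other female exceeded 0.02. Its ratio for the X-linked gene Xist was -0.71, whereas no male exceeded -2.69, and the array was kept as labelled. The groups compared below had runs of mouse numbers that did not overlap, so group and run of mouse numbers cannot be told apart.

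The windows around the start of members that hold a complete heat shock element are shown first, because such elements are the known link between the heat-inducible members. RefSeq promoter windows of GRCm38.p6, from 250 bases before to 50 after a start, matched 62 of the 75 genes. An element of 3 units, GAANNTTCNNGAA or TTCNNGAANNTTC with overlapping matches allowed, was found in the windows of 5 members, or 8.1%, against 0.7% of all 27025 genes with a window (179 genes). The 5 were Hsph1, Hspd1, Hspe1, Dnajb6 and Chordc1. Each window is given from 5′ to 3′ on the strand of its gene, in lower case, with every base of a match in capitals. The windows are, for Hsph1, the minus strand of chr5:149636266-149636565; for Hspd1, the minus strand of chr1:55087883-55088182; and for Hspe1, the plus strand of chr1:55087898-55088197. They are, for Dnajb6, the plus strand of chr5:29735648-29735947 and, for Chordc1, the plus strand of chr9:18292017-18292316.
Hsph1: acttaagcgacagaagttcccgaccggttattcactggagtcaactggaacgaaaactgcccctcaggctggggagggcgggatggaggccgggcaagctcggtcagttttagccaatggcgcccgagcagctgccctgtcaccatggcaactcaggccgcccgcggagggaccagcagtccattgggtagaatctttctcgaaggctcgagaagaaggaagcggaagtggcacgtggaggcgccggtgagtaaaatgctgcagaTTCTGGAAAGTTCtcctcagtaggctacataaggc
Hspd1: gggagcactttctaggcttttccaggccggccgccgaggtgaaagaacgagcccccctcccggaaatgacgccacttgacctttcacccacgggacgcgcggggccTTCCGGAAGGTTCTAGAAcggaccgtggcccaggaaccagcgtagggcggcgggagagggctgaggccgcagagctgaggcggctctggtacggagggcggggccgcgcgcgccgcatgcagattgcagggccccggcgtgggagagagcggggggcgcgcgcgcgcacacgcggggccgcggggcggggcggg
Hspe1: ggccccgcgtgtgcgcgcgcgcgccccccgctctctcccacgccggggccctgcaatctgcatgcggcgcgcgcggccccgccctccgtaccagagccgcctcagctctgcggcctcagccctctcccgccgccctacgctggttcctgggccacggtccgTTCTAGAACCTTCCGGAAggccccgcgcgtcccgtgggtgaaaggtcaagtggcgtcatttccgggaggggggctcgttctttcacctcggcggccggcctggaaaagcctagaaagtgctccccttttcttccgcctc
Dnajb6: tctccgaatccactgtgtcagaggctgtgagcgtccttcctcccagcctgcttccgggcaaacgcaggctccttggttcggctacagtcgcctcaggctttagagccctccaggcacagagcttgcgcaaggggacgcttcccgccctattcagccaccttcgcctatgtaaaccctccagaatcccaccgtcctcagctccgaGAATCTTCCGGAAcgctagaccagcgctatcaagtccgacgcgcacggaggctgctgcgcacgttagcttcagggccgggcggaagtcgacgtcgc
Chordc1: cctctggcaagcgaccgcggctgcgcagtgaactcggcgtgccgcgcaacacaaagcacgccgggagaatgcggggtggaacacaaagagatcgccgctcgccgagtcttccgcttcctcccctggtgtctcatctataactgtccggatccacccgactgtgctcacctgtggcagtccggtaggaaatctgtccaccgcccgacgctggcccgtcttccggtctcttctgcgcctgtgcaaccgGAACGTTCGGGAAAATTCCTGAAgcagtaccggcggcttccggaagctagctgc
Hspd1 and Hspe1, which encode HSP60 and HSP10, lie head to head, and their windows cover the same stretch on opposite strands. The capitals in both are the same 18 bases at chr1:55088059-55088076, where 2 matches overlap. In Chordc1, 3 overlapping matches fill the 23 bases at chr9:18292263-18292285, while Hsph1 and Dnajb6 each have 1 match of 13 bases. The Hsph1 match lies downstream of the start and the Chordc1 matches span it. Elements of only 2 units, GAANNTTC or TTCNNGAA, were in 30.6% of the members' windows (19 genes) and in 17.0% of all genes' windows, and Hspa1a, Hspa1b, Hspb1 and Hspb8 were among the members that held them. The ER stress element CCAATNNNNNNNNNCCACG, searched on both strands, was in 3 members' windows (4.8%), those of Hspa5, Hsp90b1 and Dnajc3, against 37 genes or 0.1% of all. Hsp90aa1 had no window to search. These matches describe letters in a window and not bound sites.

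How the members differed with the transgene under control antibody was read from PKCε IgG against FVB IgG hearts. Of the 75 members, 16 rose and 15 fell. That share, 41.3%, stood beside 42.2% of all genes (20.7% higher and 21.5% lower), and the members' median difference was 0.02, beside -0.05 over all genes. The share called was thus close to that of all genes. Calls went in both directions among the HSP70 and HSP110 genes, each class of J proteins and, on the probe sets used, the cytosolic chaperonin. Among the called members, Hspd1, Hspe1 and Hspa9 of mitochondria fell, and Hsp90aa1, Hsph1, Hspb1, Hspb3 and the J proteins Dnajc1, Dnajc10 and Dnajb11 of the endoplasmic reticulum rose, while Hspa5, Dnajb9 and Dnajb12 of that same compartment fell.

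**Figure D1:**
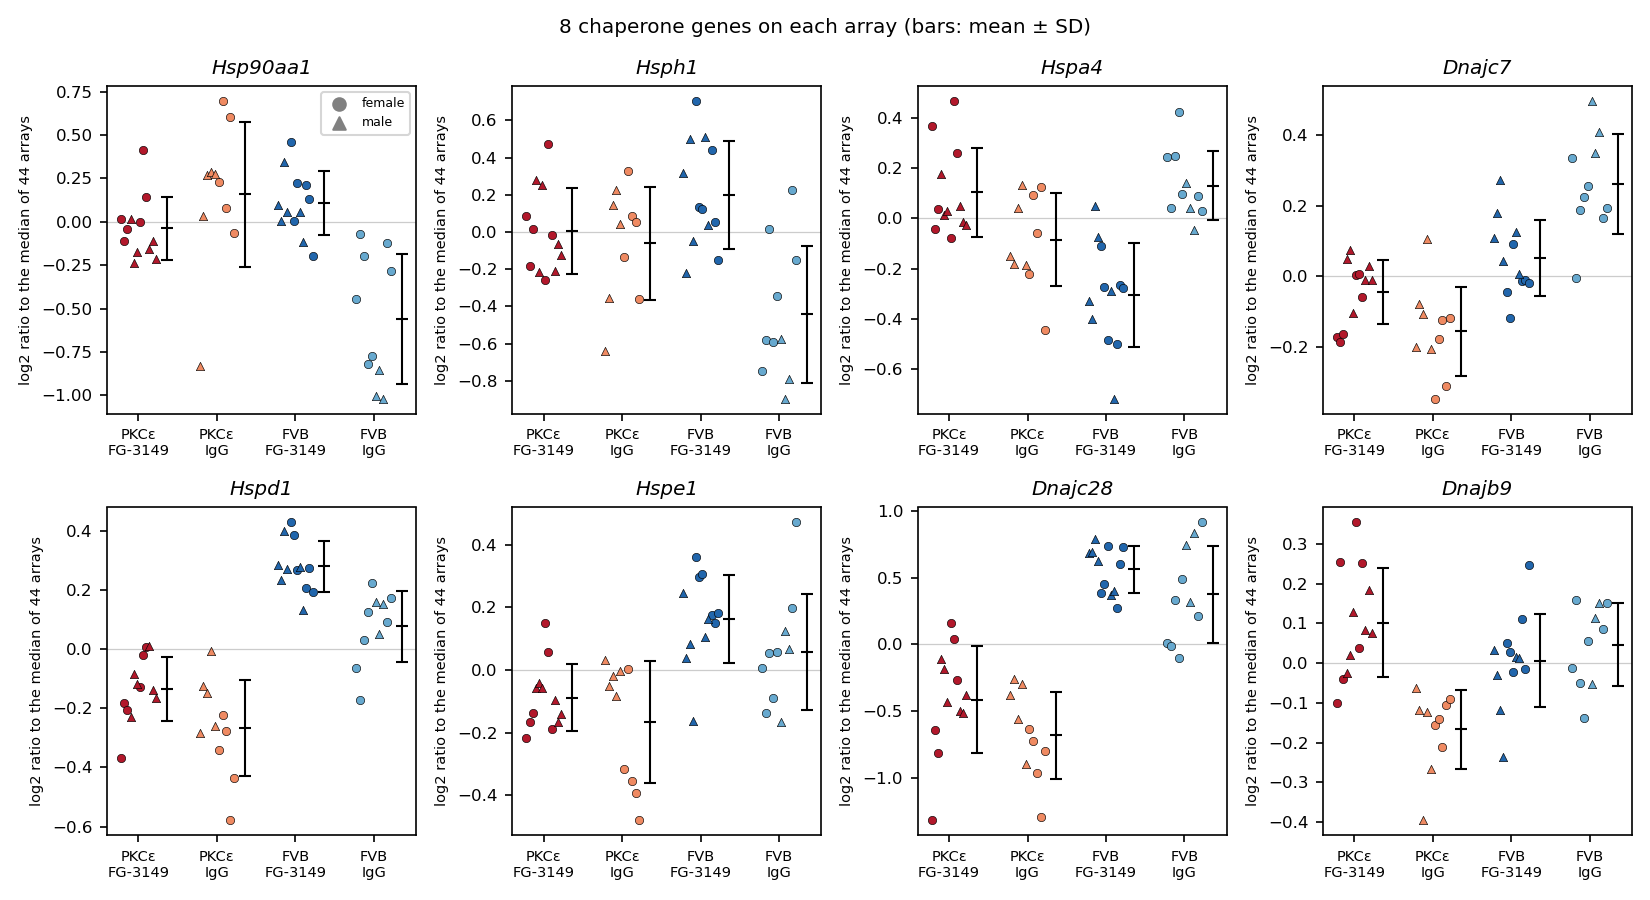
Log2 ratio to the median of 44 arrays (vertical axes) of 8 chaperone genes on every array, by group along the horizontal axes. Circles are females, triangles males, and bars the mean ± SD of 12, 10, 12 and 10 arrays. Hsp90aa1 and Hsph1 were lowest in FVB IgG hearts, Hspd1 and Dnajc28 were low in both PKCε groups, and Dnajb9 was low in PKCε IgG hearts.

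Hsp90aa1, the heat-inducible cytosolic HSP90, had a lowest, median and highest log2 ratio of -0.83, 0.25 and 0.70 in PKCε IgG hearts, against -1.02, -0.61 and -0.07 in FVB IgG hearts. Of the 10 PKCε IgG arrays, 9 lay above all FVB IgG arrays, and the other, replicate 1, lay among the lowest. The difference was 0.77 ± 0.12 (SE), or 1.70-fold (limma, adjusted p = 1.17e-06). All 3 probe sets of Hsp90aa1 rose, by 0.77, 0.44 and 0.47. Hsp90b1, the HSP90 of the endoplasmic reticulum, differed by 0.08 ± 0.07 (adjusted p = 0.392).

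Among the 12 HSP70 and HSP110 genes, 3 were called higher and 4 lower on the probe sets used, 58.3% beside 42.2% of all genes. Of those 4, Hspa8 and Hspa4 had other probe sets above 0 and lost their calls with the mean of all probe sets. Hspa1l, an HSP70 best known from testis, had log2 ratios of -0.48, 0.36 and 1.0 (lowest, median, highest) in PKCε IgG hearts, against -1.52, -0.35 and 0.24 in FVB IgG hearts. Of the transgenic arrays, 7 of 10 were above all FVB IgG arrays, and the difference was 0.84 ± 0.13 (adjusted p = 1.8e-06). Hsph1, an HSP110 that releases ADP from HSP70, ranged from -0.64 to 0.33 with a median of 0.05 in PKCε IgG hearts, against -0.90 to 0.22 with a median of -0.58 in FVB IgG hearts. The groups overlapped over most of their range, 9 of 10 transgenic arrays were above the FVB IgG median, and the rise was 0.41 ± 0.13 (adjusted p = 0.0102), with 0.55 ± 0.11 on its other probe set. Hspa2, another HSP70 abundant in testis, rose by 0.31 ± 0.08 (adjusted p = 0.000938).

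Hspa9, the mitochondrial HSP70 called mortalin, had log2 ratios of -0.68, -0.26 and 0.02 in PKCε IgG hearts, against -0.25, 0.31 and 1.06 in FVB IgG hearts. All 10 transgenic arrays were below the FVB IgG median and 7 were below every FVB IgG array. It fell by 0.69 ± 0.15 on the log2 scale (adjusted p = 0.000308), and its other 3 probe sets differed by -0.32, -0.28 and -0.20, of which -0.20 was not called (adjusted p = 0.0862). Hspa5, the HSP70 of the endoplasmic reticulum (BiP), differed by -0.19 ± 0.07 (adjusted p = 0.0173). Hspa8, the constitutive HSP70, differed by -0.73 ± 0.26 on the probe set used, while its other 3 probe sets gave 0.03, 0.10 and 0.16, so no direction is given for it. Hspa4, an HSP110 protein, likewise gave -0.21 on the probe set used and 0.11 and 0.16 on the others, and Hspa4l, the remaining HSP110 gene, gave 0.04 ± 0.08 (adjusted p = 0.665). The heat-inducible pair Hspa1a and Hspa1b, whose near-identical transcripts may share signal, varied widely within groups, and their differences of 0.18 ± 0.43 and 0.48 ± 0.46 had adjusted p values of 0.752 and 0.401.

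Hspd1, the HSP60 barrel of mitochondria, had log2 ratios of -0.58, -0.27 and -0.01 (lowest, median, highest) in PKCε IgG hearts, against -0.17, 0.11 and 0.22 in FVB IgG hearts. All 10 transgenic arrays were below the FVB IgG median. It fell by 0.36 ± 0.05 on the log2 scale (adjusted p = 9.34e-07). Hspe1, its HSP10 lid and its partner across the shared stretch printed above, ranged from -0.48 to 0.03 (median -0.07) in PKCε IgG hearts, against -0.17 to 0.47 (median 0.06) in FVB IgG hearts, and fell by 0.23 ± 0.07 (adjusted p = 0.0108). Without the 2 PKCε IgG arrays with lung genes, Hspe1 lost its call, as it did with the Gapdh difference as a covariate, while Hspd1 kept its own at -0.30 (adjusted p = 2.55e-05 and 0.000484).

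Of the 7 genes grouped by symbol as small heat shock proteins, 2 rose, 28.6% beside 42.2% of all genes called. Hspb3, found mainly in muscle, had log2 ratios of -0.14, 0.37 and 0.71 in PKCε IgG hearts, against -0.56, -0.25 and -0.08 in FVB IgG hearts. Of 10 transgenic arrays, 9 were above every FVB IgG array, and the difference was 0.54 ± 0.08 (adjusted p = 6.98e-07). Hspb1 (HSP27), which binds actin filaments, rose by 0.38 ± 0.09 (adjusted p = 0.000547). Cryab, the most abundant small heat shock protein known from heart, differed by -0.05 ± 0.08 (adjusted p = 0.609). On the probe sets used, the 5 members not called lay between -0.21 and 0.02. Another Hspb7 probe set was called at 0.36 ± 0.09 and another Hspb8 probe set at 0.165 ± 0.061 (adjusted p = 0.00162 and 0.0266). With the mean of all probe sets neither gene was called (0.097 ± 0.089 and -0.001 ± 0.053, adjusted p = 0.374 and 0.984).

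Of 9 subunits of the cytosolic chaperonin TRiC, which folds actin and tubulin, Cct8 rose by 0.31 ± 0.07 (adjusted p = 0.000649) and Cct3 differed by -0.27 ± 0.11 (adjusted p = 0.0379). Neither held across probe sets. The second Cct8 probe set fell by 0.15 ± 0.05, and the 5 further Cct3 probe sets lay between -0.10 and 0.09. On the probe sets used, the other 7 subunits lay between -0.13 and 0.10. Further probe sets were called for Cct6a (0.16 ± 0.05), Cct4 (0.14 ± 0.05 and 0.12 ± 0.04) and Cct2 (-0.085 ± 0.031). With the mean of all probe sets Cct6a was called higher (0.13 ± 0.04, adjusted p = 0.0051) and Cct2 lower (-0.11 ± 0.04, adjusted p = 0.0209). Cct4 was not called there (adjusted p = 0.0904).

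J proteins supplied 16 of the 31 calls, 2 of 4 in class A, 3 of 12 in class B and 11 of 22 in class C. Those shares were 50%, 25% and 50%, beside 42.2% of all genes. Dnajc28, a class C J protein, was the only one of the 75 members (1.33%) whose groups did not overlap, against 4.38% of all genes. Its log2 ratios were -1.29, -0.68 and -0.26 in PKCε IgG hearts, against -0.10, 0.33 and 0.91 in FVB IgG hearts, and it fell by 1.10 ± 0.14 (adjusted p = 1.11e-08), or to 0.467 of the FVB IgG level. Its second probe set fell by 0.81 ± 0.10.

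Dnajc7, which holds both HSP70 and HSP90, had the lowest p of all members. Its log2 ratios were -0.35, -0.15 and 0.11 in PKCε IgG hearts, against 0.00, 0.24 and 0.50 in FVB IgG hearts, with 9 of 10 transgenic arrays below all FVB IgG arrays. It fell by 0.44 ± 0.04 (adjusted p = 9.03e-11).

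Several J proteins of organelles were called, in both directions. Dnaja3, which works with mortalin in mitochondria, fell by 0.53 ± 0.11 (adjusted p = 0.000141) and Dnajc30, another mitochondrial J protein, fell by 0.26 ± 0.06 (adjusted p = 0.000406). One of the 3 Dnaja3 probe sets did not follow (0.02 ± 0.09). In the endoplasmic reticulum, Dnajc1, Dnajc10 and Dnajb11, which bring unfolded proteins to BiP, rose by 0.46 ± 0.07, 0.41 ± 0.07 and 0.34 ± 0.06 (adjusted p = 2.78e-06, 1.7e-06 and 2.79e-05). All 10 transgenic arrays were above the FVB IgG median in each of these 3 genes. Dnajb9 (ERdj4), a J protein of that compartment that helps to clear misfolded proteins, went the other way and fell by 0.20 ± 0.05 (adjusted p = 0.00206), and Dnajb12, a J protein of its membrane, fell by 0.21 ± 0.06 (adjusted p = 0.00409).

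The remaining J protein calls were smaller or split by probe set. Dnaja4, Dnajc14 and Dnajc8 rose by 0.36 ± 0.09, 0.38 ± 0.10 and 0.14 ± 0.05, and Dnajc4 and Dnajc12 fell by 0.32 ± 0.05 and 0.14 ± 0.06. Dnajc5, the cysteine string protein of secretory vesicles, gave 0.28 ± 0.08 and Dnajc2, a chaperone at the ribosome, gave 0.25 ± 0.10, each with other probe sets of opposite sign. Of the regulators, Hspbp1, an exchange factor for HSP70, rose by 0.33 ± 0.09 (adjusted p = 0.0034), and the other 4 lay between 0.03 and 0.27.

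**Figure D2:**
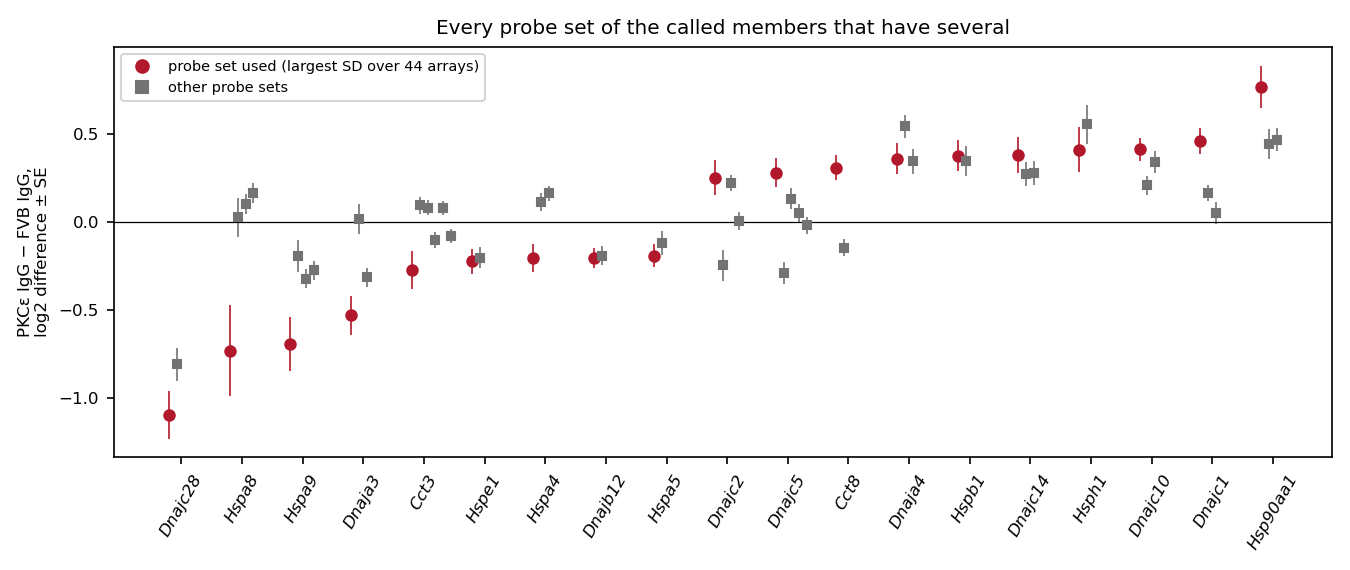
Log2 difference of PKCε IgG minus FVB IgG (vertical axis, ± SE) for every probe set of the 19 called members that have several, along the horizontal axis. Red circles are the probe set used and grey squares the others. In 12 genes all probe sets shared a sign, and in Cct3, Cct8, Dnaja3, Dnajc2, Dnajc5, Hspa4 and Hspa8 at least 1 lay on the other side of 0.

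Which probe set stands for a gene therefore bears on several calls. Of the 31 called members, 19 had more than 1 probe set, and in 12 of these all probe sets pointed the same way. With the mean of all probe sets, 25 of the 31 calls held, all but Cct3, Cct8, Dnajc2, Dnajc5, Hspa4 and Hspa8. When array medians were set to 0, the split of calls was 18 higher and 11 lower, beside 16 and 15 on the values as deposited.

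The comparison of PKCε FG-3149 with FVB FG-3149 hearts shows the difference between the lines under the CTGF antibody, on arrays that the first comparison did not use. Of the members, 12 rose and 11 fell. That was 30.7%, beside 47.0% of all genes (21.5% higher and 25.5% lower), and with array medians at 0 the split was 15 and 6. Of the members called here, 16 were also called between the IgG groups (51.6% of the 31 there and 69.6% of the 23 here). Of these, 7 were higher and 8 lower in PKCε hearts in both, and Hspa4 differed in sign.

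Hspd1 had log2 ratios of -0.37, -0.13 and 0.01 (lowest, median, highest) in PKCε FG-3149 hearts, against 0.13, 0.27 and 0.43 in FVB FG-3149 hearts. The groups did not overlap, and Hspd1 fell by 0.41 ± 0.05 (adjusted p = 6.58e-09). Hspe1 fell by 0.25 ± 0.07 (adjusted p = 0.00189). Hspa9 ranged from -0.81 to 0.16 in PKCε FG-3149 hearts, against -0.03 to 1.07 in FVB FG-3149 hearts, and fell by 0.73 ± 0.14 (adjusted p = 3.97e-05), this time on all 4 probe sets. The mitochondrial chaperonin and mortalin were thus lower in the transgenic line under either antibody. The cardiomyocyte markers given above were lower in the same hearts, and their part in these differences was not tested.

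Hspa2 and Dnajc28 were the other members without overlap, which made 3 of 75 members, or 4%, beside 5.25% of all genes. Hspa2 had log2 ratios of 0.01, 0.25 and 0.44 in PKCε FG-3149 hearts, against -0.60, -0.30 and 0.01 in FVB FG-3149 hearts, and rose by 0.55 ± 0.07 (adjusted p = 1.88e-08), the ranges being apart before rounding. Dnajc28 ranged from -1.31 to 0.16 in PKCε FG-3149 hearts, against 0.27 to 0.79 in FVB FG-3149 hearts, and fell by 0.98 ± 0.12 (adjusted p = 2.06e-08). An HSP70, a J protein and HSP60 separated every array of the lines under FG-3149, a share of members no larger than that of all genes.

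Among the other members, Hspb3 rose by 0.44 ± 0.07, and the J proteins of the endoplasmic reticulum Dnajc10, Dnajb11 and Dnajc1 rose by 0.26 ± 0.06, 0.25 ± 0.06 and 0.24 ± 0.07. Dnajc3 (P58IPK), a partner of BiP in the endoplasmic reticulum, rose by 0.36 ± 0.09 (adjusted p = 0.00228), although its difference between the IgG groups was not called. Hsf2, a heat shock factor, rose by 0.40 ± 0.11 (adjusted p = 0.0034), Bag3, which links HSP70 to autophagy in muscle, by 0.22 ± 0.08 (adjusted p = 0.0249), and Hspa4, Dnaja4, Hspa1l and Dnajc13 by 0.41, 0.25, 0.35 and 0.12. Dnajc4, Dnajc5b, Chordc1, Hspa5, Dnajc30 and Dnajc7 fell by 0.18, 0.18, 0.17, 0.14, 0.13 and 0.10. Dnajb6 had -0.23 ± 0.09 on the probe set used and 0.05 in the mean of its probe sets (adjusted p = 0.282), so no direction is given for it, and Hspa5 had 0.00 on its other probe set and lost its call with the mean. Bag3 lost its call without PKCε FG-3149 replicate 6, and Dnajc7, Hspa5, Dnajc13, Dnajc30 and Chordc1 lost theirs in 15, 15, 12, 9 and 8 of 44 runs that left out 1 array.

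Under FG-3149 neither Hsp90aa1 nor Hsph1 was called between the lines on the probe set used. Hsp90aa1 had log2 ratios of -0.24, -0.08 and 0.41 in PKCε FG-3149 hearts, against -0.20, 0.08 and 0.46 in FVB FG-3149 hearts, a difference of -0.14 ± 0.11 (adjusted p = 0.264). Its other probe sets gave -0.06 ± 0.08 and a called 0.22 ± 0.06 (adjusted p = 0.00289), so its direction here differs by probe set. Hsph1 differed by -0.20 ± 0.12 (adjusted p = 0.16). On the probe sets used the groups of both genes overlapped.

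**Figure D3:**
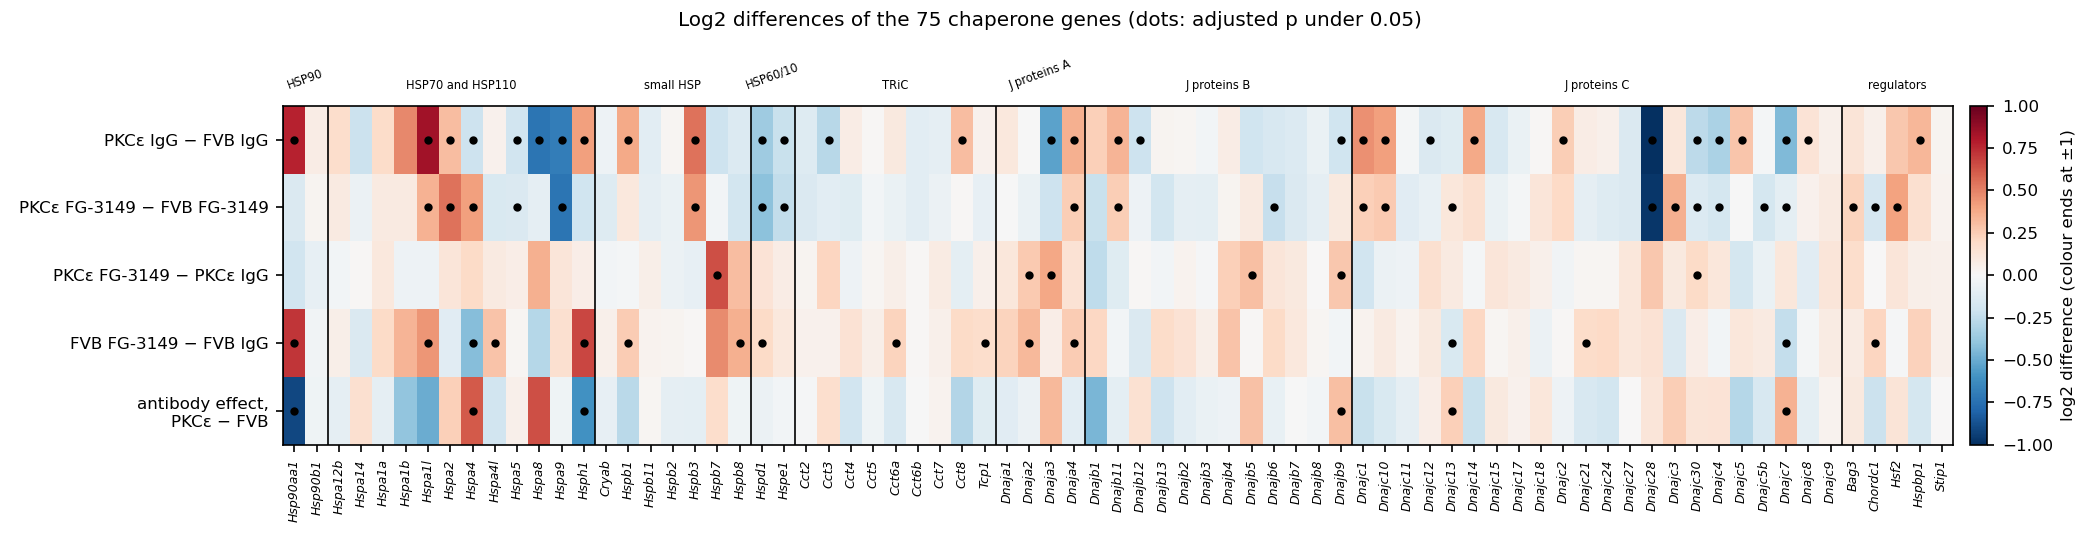
Log2 difference (colour, ending at ±1) of the 75 members, grouped by role along the horizontal axis, in 4 group comparisons and in the difference of the antibody effects (vertical axis). Black dots mark an adjusted p under 0.05. Hspd1, Hspe1, Hspa9 and Dnajc28 were blue in both comparisons that set PKCε against FVB hearts, and Hsp90aa1 and Hsph1 were red for the antibody in FVB hearts.

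The antibody effect in nontransgenic hearts was read from FVB FG-3149 against FVB IgG mice. Of the members, 13 rose and 3 fell, which was 21.3%, beside 9.0% of all genes (4.43% higher and 4.57% lower). The members' median difference was 0.08, beside 0.03 over all genes, and 60 of 75 differences (80%) were above 0, beside 59.9% of all genes. No member's groups were free of overlap, against 0.234% of all genes.

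The lowest p among members was that of Hsp90aa1, while Hsp90b1 differed by -0.04 ± 0.07 (adjusted p = 0.799). Hsp90aa1 had log2 ratios of -0.20, 0.08 and 0.46 (lowest, median, highest) in FVB FG-3149 hearts, against -1.02, -0.61 and -0.07 in FVB IgG hearts. Of the 12 antibody-treated arrays, 10 were above every FVB IgG array and all 12 were above the FVB IgG median. The rise was 0.72 ± 0.11, or 1.64-fold (adjusted p = 4.01e-05). Its other 2 probe sets gave 0.20 ± 0.08 and 0.13 ± 0.06, with adjusted p values of 0.11 and 0.201.

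Hsph1 ranged from -0.22 to 0.71 with a median of 0.13 in FVB FG-3149 hearts, against -0.90 to 0.22 with a median of -0.58 in FVB IgG hearts. All 12 antibody-treated arrays were above the FVB IgG median. The rise was 0.67 ± 0.12, or 1.59-fold (adjusted p = 0.00039), and its second probe set rose by 0.41 ± 0.11. Chordc1, an HSP90 cochaperone with 3 overlapping elements in its window, rose by 0.22 ± 0.07 (adjusted p = 0.037).

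The other HSP110 genes went opposite ways. Hspa4l and the HSP70 gene Hspa1l rose by 0.29 ± 0.07 and 0.44 ± 0.13 (adjusted p = 0.00817 and 0.0232). Hspa4 had log2 ratios of -0.72, -0.28 and 0.05 in FVB FG-3149 hearts, against -0.05, 0.09 and 0.42 in FVB IgG hearts, and fell by 0.43 ± 0.08 (adjusted p = 0.000279). Among the antibody-treated arrays, 11 of 12 were below every FVB IgG array. A second Hspa4 probe set fell by 0.18 ± 0.05 and the third gave 0.09 ± 0.04 (adjusted p = 0.17).

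Among the remaining roles, Hspd1 ranged from 0.13 to 0.43 in FVB FG-3149 hearts, against -0.17 to 0.22 in FVB IgG hearts, and rose by 0.19 ± 0.05 (adjusted p = 0.0155). The TRiC subunits Cct6a and Tcp1 rose by 0.22 ± 0.05 and 0.17 ± 0.05, and all 9 subunits had a difference above 0, as did 59.9% of all genes. Hspb8, which works with Bag3, and Hspb1 rose by 0.35 ± 0.11 and 0.26 ± 0.08. The cytosolic J proteins Dnaja2 and Dnaja4 and the ribosome factor Dnajc21 rose by 0.32 ± 0.07, 0.25 ± 0.08 and 0.18 ± 0.05, while Dnajc7 and the endosomal Dnajc13 fell by 0.24 ± 0.04 and 0.15 ± 0.05. The second Dnaja2 probe set gave -0.01 ± 0.05.

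Atrial genes moved with this comparison: their mean log2 ratio had a median of -1.76 in FVB FG-3149 hearts, against 4.90 in FVB IgG hearts. Adipocyte markers (3 of 4 measured) did too, with a median of -0.59 in FVB FG-3149 hearts, against 1.62 in FVB IgG hearts, and their part was not tested. Without the 10 atrial-high arrays, 7 members were called, beside 1.75% of all genes, and 6 of the 16 calls remained. Hsp90aa1 and Hsph1 kept theirs, at 0.86 ± 0.14 and 0.70 ± 0.15 (adjusted p = 0.000614 and 0.00644), and Hspd1, at 0.14 ± 0.07, did not (adjusted p = 0.414). With array medians at 0, Chordc1, Hspb1 and Dnaja4 were no longer called, and without FVB IgG replicate 7 the count of members was 10. Hspa1l was lost without that array, Tcp1 without FVB IgG replicate 7 or 9 and Hspb8 without FVB IgG replicate 2 or 8, and Dnaja4, Hspb1, Dnajc13 and Chordc1 were lost in 23, 19, 18 and 9 of 44 runs that left out 1 array. In females alone Hsp90aa1 differed by 0.53 ± 0.14 (adjusted p = 0.043) and Hsph1 by 0.53 ± 0.16 (adjusted p = 0.0709), and in males alone by 1.03 ± 0.17 and 0.94 ± 0.19 (adjusted p = 0.0102 and 0.0296), where FVB IgG had 3 mice.

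In PKCε FG-3149 against PKCε IgG hearts, 6 members rose and none fell. That was 8.0%, beside 8.82% of all genes (5.08% higher and 3.74% lower), a share close to that of all genes, and no member's groups were free of overlap, beside 0.113% of all genes. Without the atrial-high arrays 3 were higher and 1 lower, beside 4.26% of all genes called. When the Gapdh difference entered the fit 4 were higher and 1 lower, beside 3.87% of all genes called. Dnajb9, the J protein ERdj4 of the endoplasmic reticulum, had log2 ratios of -0.10, 0.08 and 0.35 in PKCε FG-3149 hearts, against -0.39, -0.13 and -0.06 in PKCε IgG hearts. Among the antibody-treated arrays, 11 of 12 were above every PKCε IgG array, and the rise was 0.27 ± 0.05 (adjusted p = 0.000581). Dnajb9 was the member with the lowest p in this comparison.

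Hspb7, a small heat shock protein of heart and muscle, ranged from -0.34 to 0.72 (median 0.37) in PKCε FG-3149 hearts, against -1.36 to 0.32 (median -0.34) in PKCε IgG hearts. It rose by 0.64 ± 0.16 (adjusted p = 0.0078) on the probe set used, whereas its other 2 probe sets gave 0.10 ± 0.09 and -0.01 ± 0.06. Dnaja2 and Dnaja3 rose by 0.26 ± 0.06 and 0.39 ± 0.11 (adjusted p = 0.00679 and 0.0152), Dnajc30 by 0.20 ± 0.06 and Dnajb5 by 0.30 ± 0.10 (adjusted p = 0.0229 and 0.0442).

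Several of these calls depended on other measures of the arrays. The clock gene score averaged 1.07 in PKCε FG-3149 hearts, against -0.82 in PKCε IgG hearts, and with it as a covariate Dnajb9 and Hspb7 kept their calls and the other 4 members did not. Without the 2 arrays with lung genes, 3 calls were left, those of Dnajb9, Dnaja2 and Hspb7. With the Gapdh difference as a covariate Dnajb9, Dnajc30 and Dnajb5 kept theirs. With the mean of all probe sets Dnajb9, Dnaja2 and Dnajc30 were called, and Dnajb5 lost its call in 15 of 44 runs that left out 1 array and Dnajc30 in 1, without PKCε IgG replicate 9 (adjusted p = 0.056). Hsp90aa1, Hsph1 and Hspd1 differed by -0.20 ± 0.11, 0.07 ± 0.12 and 0.13 ± 0.05 here (adjusted p = 0.321, 0.826 and 0.102). Another Hsp90aa1 probe set fell by 0.30 ± 0.08 (adjusted p = 0.0139) and the last gave -0.11 ± 0.06, and the second Hsph1 probe set gave -0.15 ± 0.11 (adjusted p = 0.443).

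The difference between the antibody effects, in PKCε minus in FVB hearts, was called in 6 members (4 higher and 2 lower), 8.0%, beside 3.86% of all genes (2.09% higher and 1.78% lower). Hsp90aa1 gave -0.91 ± 0.16 (adjusted p = 0.00025) and Hsph1 -0.61 ± 0.18 (adjusted p = 0.0394). On the probe sets used, both rose with FG-3149 in FVB hearts and were not called in PKCε hearts. These rises, the rises between the IgG groups and this difference of effects all used the FVB IgG arrays. Both genes were lowest in that group, so the 3 results are not independent. The other 2 probe sets of Hsp90aa1 gave -0.50 ± 0.11 and -0.25 ± 0.09 (adjusted p = 0.00586 and 0.115). The first of these was called lower in PKCε hearts and not called in FVB hearts. The second probe set of Hsph1 gave -0.55 ± 0.15 (adjusted p = 0.0242). Hsph1 lost its call in 21 of 44 runs that left out 1 array, with an adjusted p of at most 0.0738.

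The other 4 members had the opposite sign. Dnajc7 gave 0.35 ± 0.06 (adjusted p = 0.000196), with a fall by 0.24 in FVB hearts and 0.11 ± 0.04 in PKCε hearts (adjusted p = 0.0945). Hspa4 gave 0.62 ± 0.11 (adjusted p = 0.000266), though its other 2 probe sets gave 0.09 ± 0.07 and -0.07 ± 0.06. Dnajb9 gave 0.30 ± 0.07 (adjusted p = 0.0103) and Dnajc13 gave 0.24 ± 0.07 (adjusted p = 0.0406), the last lost in 20 of the 44 runs. Without the atrial-high arrays Hsp90aa1, Dnajc7 and Hspa4 kept their calls and Hsph1, Dnajb9 and Dnajc13 did not.

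**Figure D4:**
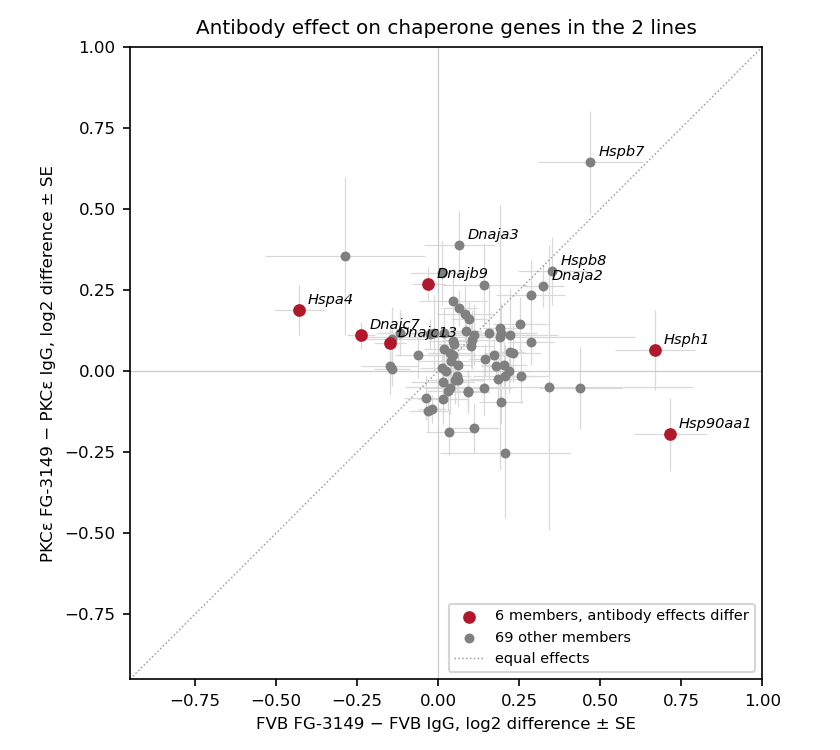
Log2 difference of FG-3149 minus IgG in PKCε hearts (vertical axis) against that in FVB hearts (horizontal axis) for the 75 members, each ± SE. Red points are the 6 members whose antibody effects differed between the lines and the dotted line marks equal effects. Hsp90aa1 and Hsph1 lie far right at -0.20 and 0.07 on the vertical axis, and Hspa4 lies upper left.

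Between the sexes, averaged over groups, 6 members were higher and 6 lower in the 24 females than in the 20 males, which was 16%, beside 15.8% of all genes (8.67% higher and 7.12% lower). With array medians at 0, the split was 10 and 3. Hspa1l had log2 ratios of -0.70, 0.25 and 1.0 (lowest, median, highest) in females, against -1.52, -0.18 and 0.47 in males, and was higher in females by 0.55 ± 0.09 (adjusted p = 5.01e-05). In PKCε FG-3149 hearts every female (0.47 to 0.71) was above every male (-0.52 to 0.24). Dnajc10, Dnajc3, Hsp90b1 and Dnajb11 of the endoplasmic reticulum and Hsp90aa1 were higher in females by 0.22, 0.31, 0.15, 0.13 and 0.26, with adjusted p values up to 0.0313.

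Dnajc7, Dnajc15, Dnaja3, Hspb3, Hspb8 and Hspa12b were lower in females, by -0.14, -0.20, -0.24, -0.17, -0.22 and -0.17. Dnajc15 and Dnaja3 act in mitochondria, Hspb3 and Hspb8 in muscle, and Hspa12b in endothelium. Without the 10 atrial-high arrays 5 of the 12 calls remained, as they did with the clock score as a covariate, and Hspa1l, Dnajc10 and Dnajc3 were among them each time. Hspa12b and Hspb8 lost their calls in 23 and 22 of 44 runs that left out 1 array, Dnajb11 lost its call without FVB IgG replicate 6 or 7 or PKCε FG-3149 replicate 5, and Hspb3 without PKCε IgG replicate 2 or 9. A difference between the sexes in the effect of the transgene under IgG was called in 0 of 75 members by limma, with or without robust moderation, beside 0.0807% of all genes. At an unadjusted p under 0.05 there were 5, or 6.7%, beside 8.6% of all genes.

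Genes outside the rule that work with these chaperones were read as lists. In PKCε IgG against FVB IgG hearts, 7 of 11 genes of mitochondrial protein quality fell and none rose (63.6%, beside 42.2% of all genes called and 21.5% lower), with a median difference of -0.25, beside -0.05 over all genes. Clpp, the matrix protease, fell by 0.59 ± 0.07, and Timm44, which anchors mortalin at the import channel, by 0.45 ± 0.08. Phb2 and Clpx fell by 0.28 ± 0.06 and 0.44 ± 0.10. Under FG-3149 9 of the 11 fell between the lines (81.8%, beside 47.0% of all genes called and 25.5% lower). Of 29 genes of stress and folding in the endoplasmic reticulum, 9 rose and 4 fell in PKCε IgG hearts, 44.8% and so close to the 42.2% of all genes. Among the risers were P4hb, a disulfide isomerase, at 0.70 ± 0.07, Eif2ak3 (PERK) at 0.42 ± 0.06 and Edem1 at 0.64 ± 0.11. The 4 that fell were Atf3, at -1.59 ± 0.35 the largest difference of the list, Ero1b (-0.28 ± 0.10), Canx (-0.23 ± 0.08) and Herpud1.

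Herpud1, which helps to degrade misfolded proteins of the endoplasmic reticulum, had log2 ratios of -0.15, -0.02 and 0.29 in PKCε FG-3149 hearts, -0.79, -0.44 and -0.19 in PKCε IgG hearts, and -0.01, 0.22 and 0.42 in FVB IgG hearts. It fell by 0.64 ± 0.07 in PKCε IgG against FVB IgG hearts, and rose by 0.45 ± 0.07 in PKCε FG-3149 against PKCε IgG hearts (adjusted p = 2.73e-05), with all 12 treated arrays above all 10 others. Its antibody effect differed between the lines by 0.50 ± 0.09 (adjusted p = 0.00055). In Dnajb9, described above, PKCε IgG hearts likewise had the lowest group median.

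Of 29 further cochaperones, 8 rose and 6 fell in PKCε IgG against FVB IgG hearts, 48.3% beside 42.2% of all genes. The HSP90 cochaperone Fkbp4 fell by 0.66 ± 0.09, the prefoldin subunits Pfdn2 and Pfdn6 fell by 0.27 ± 0.04 and 0.26 ± 0.05, and the HSP70 exchange factor Bag2 rose by 0.36 ± 0.07. With FG-3149 in FVB hearts 5 rose and 1 fell, 20.7% beside 9.0% of all genes. Ahsa1, which activates the HSP90 ATPase, rose by 0.21 ± 0.04 (adjusted p = 0.00188) in all 12 arrays relative to the FVB IgG median, as did Bag1 and Trap1, the HSP90 of mitochondria, by 0.17 ± 0.04 and 0.28 ± 0.08, and Tomm34 fell by 0.16 ± 0.04. The antibody effects differed between the lines in Ahsa1 (-0.26 ± 0.06) and Tomm34 (0.22 ± 0.06). In PKCε FG-3149 against PKCε IgG hearts 1 of them, Fkbp4, rose by 0.31 ± 0.08 (adjusted p = 0.0149), and Cirbp, a cold-inducible RNA-binding protein, rose by 0.30 ± 0.09 (adjusted p = 0.0281).

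Mice of 1 group also differed from each other in heat-inducible members. After the mean of each group and sex was removed, Hsph1 was correlated with 7 other genes over the 44 arrays. Its deviations rose with those of Hsp90aa1 (Pearson r = 0.677, Spearman rho = 0.644, adjusted p = 0.00014 and 0.00035 by permutation), and r was between 0.402 and 0.867 within the 4 groups. Chordc1 had r = 0.586 and rho = 0.546 (adjusted permutation p = 0.00108 and 0.00283), Hspa1b 0.541 and 0.50 (0.00208 and 0.00623), and Dnajb1, the heat-inducible J protein, 0.492 and 0.434 (0.00656 and 0.0184).

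Hspd1 had a weaker relation, r = 0.363 and rho = 0.379 (adjusted permutation p = 0.0371 and 0.0296), which was -0.070 within PKCε FG-3149 hearts and 0.326 without the 2 arrays farthest from the median of the Hsph1 deviations (FVB IgG replicate 9 and FVB FG-3149 replicate 5). It was not called in 9 of 44 runs that left out 1 array, with an adjusted permutation p of at most 0.0867. Cirbp went the other way, r = -0.385 and rho = -0.390 (adjusted permutation p = 0.0289 and 0.0253), and without PKCε IgG replicate 1, the lowest array in Hsph1 deviation, it was not called (r = -0.315, adjusted permutation p = 0.0831). Hspa8 had r = 0.003 on its most variable probe set (adjusted permutation p = 0.987) and 0.391 on the mean of its probe sets. Without those 2 farthest arrays r was 0.647 for Hsp90aa1, 0.555 for Chordc1, 0.479 for Hspa1b, 0.449 for Dnajb1 and -0.403 for Cirbp. All arrays share their processing, and only group and sex were removed.

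**Figure D5:**
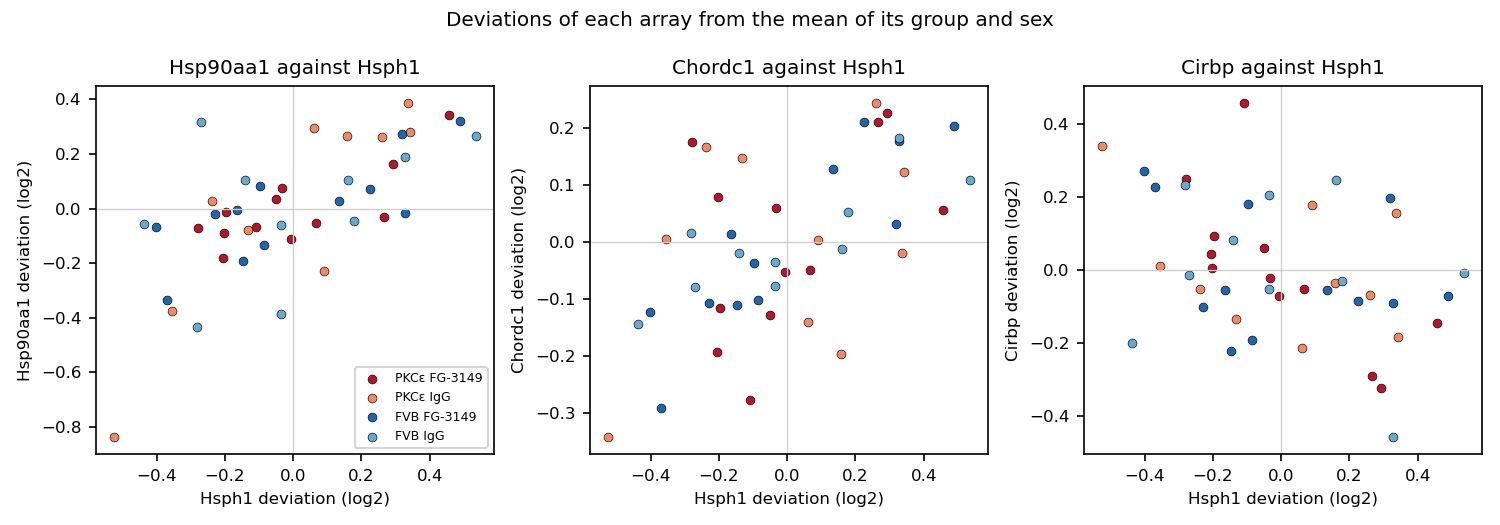
Deviation of each of 44 arrays from the mean of its group and sex, in log2 units, for Hsph1 (horizontal axes) and for Hsp90aa1, Chordc1 and Cirbp (vertical axes). Hsp90aa1 and Chordc1 increased with Hsph1 (r = 0.677 and 0.586), Cirbp decreased (r = -0.385), and 1 PKCε IgG array, replicate 1, lies lowest in both Hsph1 and Hsp90aa1.

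Over all members, 7 of 74 had r above 0.5 with Hsph1, or 9.5%, beside 0.64% of 12393 genes (79 genes), as a description over arrays that share these groups. They were Dnaja1 (0.690), Hsp90aa1, Cct5 (0.606), Chordc1, Hspa1b, Dnaja2 (0.518) and Hsp90b1 (0.502). Dnaja1, the main class A partner of HSP70 in the cytosol, ranked 3 among those genes and yet was called in no group comparison.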

How the data were processed

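The authors processed the arrays with GCRMA and GeneSpring GX 7.3.1 and deposited, for each of 22690 probe sets, a ratio to that probe set's median over the arrays, per the series' design text. These ratios have no absolute level, so whether a marker was absent could not be read. The genome build was not given in the sources used here. Of the probe sets, 20393 named 1 gene, 691 several and 1606 none, and the probe set with the largest SD stood for each of 12394 genes.

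log2 ratios were fitted with limma 3.58.1 in R 4.3.3, with group and sex as terms, over all arrays, and p-values were adjusted by Benjamini-Hochberg over all genes, with a threshold of 0.05. The interaction of antibody and line used the same fit. The interaction of transgene and sex used a separate fit with a mean for each combination of group and sex. The fit was tested on simulated data. Arrays have no read depth, and the number of mice limits the precision. Replicates were separate mice, and no 2 arrays held identical values. Members named with values were Hsp90aa1, Hsph1, Hspd1 and, per comparison, up to 25 called members by lowest p, and others were chosen after their values were seen. The members and gene lists were chosen with earlier results of these data known. Correlations used deviations from group and sex means over 7 pairs, 100000 permutations and two-sided tests. Alternatives changed normalization, pseudocount, filter, probe set choice, sex term, replicate block and arrays used. The atrial, lung, clock, Gapdh and Uty arrays or scores had been seen in the data before they were chosen.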

Additional observations from a re-analysis of the deposited data

Results flagged for a closer look

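Some members held an array that stood far from the rest of its group. Hsp90aa1 was at -0.833 on PKCε IgG replicate 1, where the next lowest array was at -0.067. Dnaja3 was at -0.656 on FVB IgG replicate 2, next to -0.018, and Hspb8 was at -0.725 on the same array, next to -0.302. These were 3 of 90 groups examined, and chance gives about 1 in 20.

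The antibody effect differed between PKCε and FVB hearts, by the interaction test in limma, for 6 members. That was 8.0%, beside 3.86% of all genes. The log2 difference of the effects was 0.348 for Dnajc7, 0.617 for Hspa4, 0.299 for Dnajb9 and 0.236 for Dnajc13, and it was -0.912 for Hsp90aa1 and -0.605 for Hsph1. The other probe sets of Hspa4 gave 0.093 and -0.070 and were not called. Hsph1 and Dnajc13 lost their calls in 21 and 20 of 44 runs that left out 1 array.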

How the results depend on the processing

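Counts of called members moved by more than 1.5 times in these cases. The share of all genes called is given beside each, apart from the runs that left out 1 array. Between PKCε IgG and FVB IgG hearts (31), males alone gave 18, with 17.5% of all genes, beside 42.2% in the main fit. Between PKCε FG-3149 and PKCε IgG hearts (6), the mean of all probe sets gave 3, males alone 0, the arrays without lung genes 3 and the clock covariate 2. All genes called were 8.48%, 0.46%, 3.55% and 3.74% there, beside 8.82% in the main fit. Between FVB FG-3149 and FVB IgG hearts (16), females alone gave 4, males alone 2, the arrays without high atrial genes 7 and the atrial covariate 6. All genes called were 3.28%, 0.46%, 1.75% and 2.15% there, beside 9.0% in the main fit. Between PKCε FG-3149 and FVB FG-3149 hearts (23), males alone gave 12, with 22.8% of all genes, beside 47.0% in the main fit. For the difference of antibody effects (6), females alone and males alone each gave 1, with 0.89% and 0.30% of all genes, beside 3.86%. Between females and males (12), the replicate block gave 7, and leaving out the atrial-high arrays or adding the clock covariate gave 5 each. All genes called were 13.5%, 9.47% and 5.38% there, beside 15.8% in the main fit. The other counts of these alternatives stayed within 1.5 times. Of the runs that left out 1 array, only the run without FVB IgG replicate 7 moved a count further, to 10 from 16 between FVB FG-3149 and FVB IgG hearts. Leaving out 1 array gave 27 to 33 between PKCε IgG and FVB IgG hearts, 4 to 9 between PKCε FG-3149 and PKCε IgG hearts, 10 to 18 between FVB FG-3149 and FVB IgG hearts, 19 to 25 between PKCε FG-3149 and FVB FG-3149 hearts, 4 to 6 for the difference of antibody effects and 9 to 15 between the sexes. Dnajb6 turned to 0.048 in PKCε FG-3149 against FVB FG-3149 hearts with the mean of all probe sets. For the relation to Hsph1, Hspa8 had 0.391 and Hspd1 0.289 with mean probe sets, and the replicate block gave 0.189 for Hspd1 and -0.245 for Cirbp. Leaving out 1 array gave 0.320 to 0.408 for Hspd1 and -0.455 to -0.315 for Cirbp, with the call lost in 9 runs and in 1 run. The causes were not tested. Replicate numbers did not pair the mice: 62 same-numbered pairs had a mean correlation of -0.025, against 0.002 for others, and 3 of 44 arrays correlated best with their own number. With the replicate block the counts were 30, 4, 14, 20 and 5 in the first 5 of the comparisons, in the order just given for leaving out 1 array. All genes called were 41.5%, 6.39%, 6.47%, 45.3% and 3.28%, in the same order.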
